A study of Homo sapiens with 2 samples.

Results

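Nucleolar ribosome biogenesis factors are the proteins that cut, fold and chemically modify the precursor of ribosomal RNA (pre-rRNA) and assemble it with ribosomal proteins. The genes described here are 47 such factors, chosen by name and not by their level, out of 57736 genes with a value. All 47 names were matched to 1 gene each through their Ensembl identifiers. Poly(A)+ RNA was sequenced with 50 bp reads from HEK293T, an established human embryonic kidney cell line in which SV40 large T antigen is expressed. The cells were labelled wild type with no treatment named, and were grown at 37 °C, and the tissue is given as kidney. There were 2 samples, replicates 1 and 2 of a single group, with 10593491 and 10104118 estimated counts. No condition was compared, and since the labels do not say that the replicates came from separate cultures, the spread between them may be technical.

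In the nucleolus, RNA polymerase I transcribes the pre-rRNA, and the small-subunit (SSU) processome forms on it while it is still being made. Small nucleolar RNAs (snoRNAs) of the box C/D class guide 2'-O-methylation and those of the box H/ACA class guide pseudouridylation, each in a particle with its own core proteins. The precursor is then split into a pre-40S and a pre-60S branch, in which separate sets of factors mature the small and the large subunit before export. Many of these genes are known targets of the MYC transcription factor, which binds the E-box CACGTG.

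The E-box was searched for in RefSeq promoter windows of 300 bases, from 250 bases before to 50 bases after an annotated start (assembly GRCh38.p14). The sequence CACGTG is its own reverse complement, so 1 search covers both strands. Windows were held for 40 of the 47 factors, and 5 of these had 2 windows for alternative starts, which gave 45 windows. CACGTG was present in 20 of the 45 windows (44.4%, 95% Wilson interval 30.9 to 58.8%, counting error only), against 7.26% of all 35116 windows and 9.39% of the windows of detected protein-coding genes. Counted by gene, it was present for 20 of 40 factors (50.0%), against 8.77% of all genes with a window. These shares are a description of the sequence and were not tested, and a match of 6 letters is not evidence of binding.

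The sites of the most highly expressed factors that hold one, down to NOP14, and of the 2 lowest factors of all, are printed here to show the motif at both ends of the range of levels. For NOP10, which has 2 sites, the one nearer to the start is shown. Each is given 5′ to 3′ on the strand of the gene, with CACGTG in capitals and its GRCh38.p14 position.
FBL (chr19:39846356-39846385, minus strand): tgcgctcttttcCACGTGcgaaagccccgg
GNL3 (chr3:52686026-52686055, plus strand): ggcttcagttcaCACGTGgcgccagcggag
DDX21 (chr10:68956604-68956633, plus strand): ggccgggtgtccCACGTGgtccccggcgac
WDR43 (chr2:28894658-28894687, plus strand): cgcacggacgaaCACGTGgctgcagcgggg
NOP10 (chr15:34343130-34343159, minus strand): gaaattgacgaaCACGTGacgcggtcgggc
PES1 (chr22:30591880-30591909, minus strand): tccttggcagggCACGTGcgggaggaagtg
GNL2 (chr1:37595917-37595946, minus strand): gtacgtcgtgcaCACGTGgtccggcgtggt
NOP2 (chr12:6568242-6568268, minus strand, 27 bases up to the end of the window): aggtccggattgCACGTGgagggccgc
NOP14 (chr4:2963374-2963403, minus strand): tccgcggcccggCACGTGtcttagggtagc
UTP20 (chr12:101280083-101280112, plus strand): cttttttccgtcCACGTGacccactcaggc
RCL1 (chr9:4792936-4792965, plus strand): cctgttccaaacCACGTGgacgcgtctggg

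The sites gathered around the start. The first base of the site lay 7 bases after the start in FBL and GNL3, 4 bases after it in WDR43 and GNL2, and 5 bases after it in RCL1. In UTP20 and NOP10 the printed site began 10 and 11 bases before the start, and in DDX21 it began 31 bases before. The other site of NOP10 lay 170 bases before the start, and IMP4 and UTP18 likewise had a far site, 203 and 89 bases before it, beside a near one. Of the 23 sites in the factors' windows, 20 lay within 50 bases of the start and 15 (65.2%) lay in the 50 bases after it. Among all windows, 1042 (36.9%) and 312 (11.1%) of 2821 sites did so. Among the other ribosome biogenesis genes, a second list taken up below, 14 (63.6%) and 10 (45.5%) of 22 sites did. Gathering around the start was thus not particular to the factors. In the upstream bases alone, 6 of the 45 windows (13.3%) held the motif, against 6.34% of all windows. The other ribosome biogenesis genes held it there in 14.9% of windows.

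**Figure D1:**
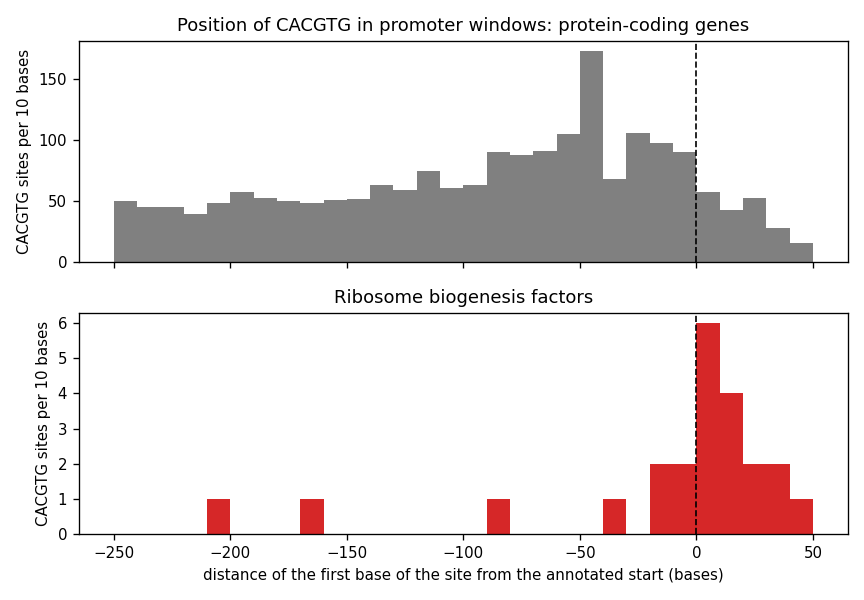
Number of CACGTG sites per 10 bases (vertical axes) against the distance of the site's first base from the annotated start in bases (horizontal axis), for protein-coding genes above and the ribosome biogenesis factors below, with a dashed line at the start. The factors' 23 sites gather just after the start, where 15 of them lie, whereas the sites of protein-coding genes are spread over the whole window.

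The motif was found in factors of nearly every step. It was in the windows of 6 of 10 other SSU processome factors, 3 of 5 pre-40S factors, 3 of 5 other pre-60S factors, 2 of 3 box H/ACA proteins and 2 of 3 proteins of the U3 and MPP10 group. It was in those of 1 of 2 box C/D proteins, 1 of 2 PeBoW proteins, 1 of 4 UTP-A proteins and 1 of 4 UTP-B proteins. Neither NPM1 nor NCL, the most highly expressed factors, held it in the window, which says only that these letters are not in this stretch. The other ribosome biogenesis genes, a second list of the same pathway, held it in 29.9% of their windows. The share was 5.26% for RNA polymerase I and rDNA initiation genes and 5.13% for cytosolic ribosomal protein genes. Factors with the motif had a median level of 96.3 TPM and those without it 70.7 TPM, with ranges that overlapped almost wholly (26.4 to 482 TPM against 32.9 to 3366 TPM). The non-canonical E-box CACGCG (or CGCGTG on the other strand) was in 22.2% of the factors' windows. It was in 11.4% of all windows and 17.4% of those of detected protein-coding genes. Of the related lists, the other ribosome biogenesis genes held it in 23 of 67 windows (34.3%). RNA polymerase I and rDNA initiation genes held it in 7 of 19 (36.8%) and cytosolic ribosomal protein genes in 15 of 78 (19.2%). The non-canonical E-box was thus not particular to the factors. The median GC content of the factors' windows was 63.0%, and it was 65.0% for detected protein-coding genes.

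Levels are given as TPM, a transcript abundance that is divided by transcript length, and so can be compared between genes. All 47 factors were detected, with at least 1 TPM in both replicates, against 63.7% of protein-coding genes and 27.7% of all genes. Their median level was 87.6 TPM, with quartiles of 50.1 and 131.7 TPM, against a median of 21.2 TPM for detected protein-coding genes. The factor with the median level stood at percentile 91.9 of all protein-coding genes, and the lowest factor, RCL1, at percentile 72.4. Each of the 47 was above the median of detected protein-coding genes. From the lowest to the highest the levels spanned 127-fold: 17 factors were above 100 TPM, 18 between 50 and 100 TPM and 12 below 50 TPM. In all they took 1.03% and 0.985% of the TPM in replicates 1 and 2.

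**Figure D2:**
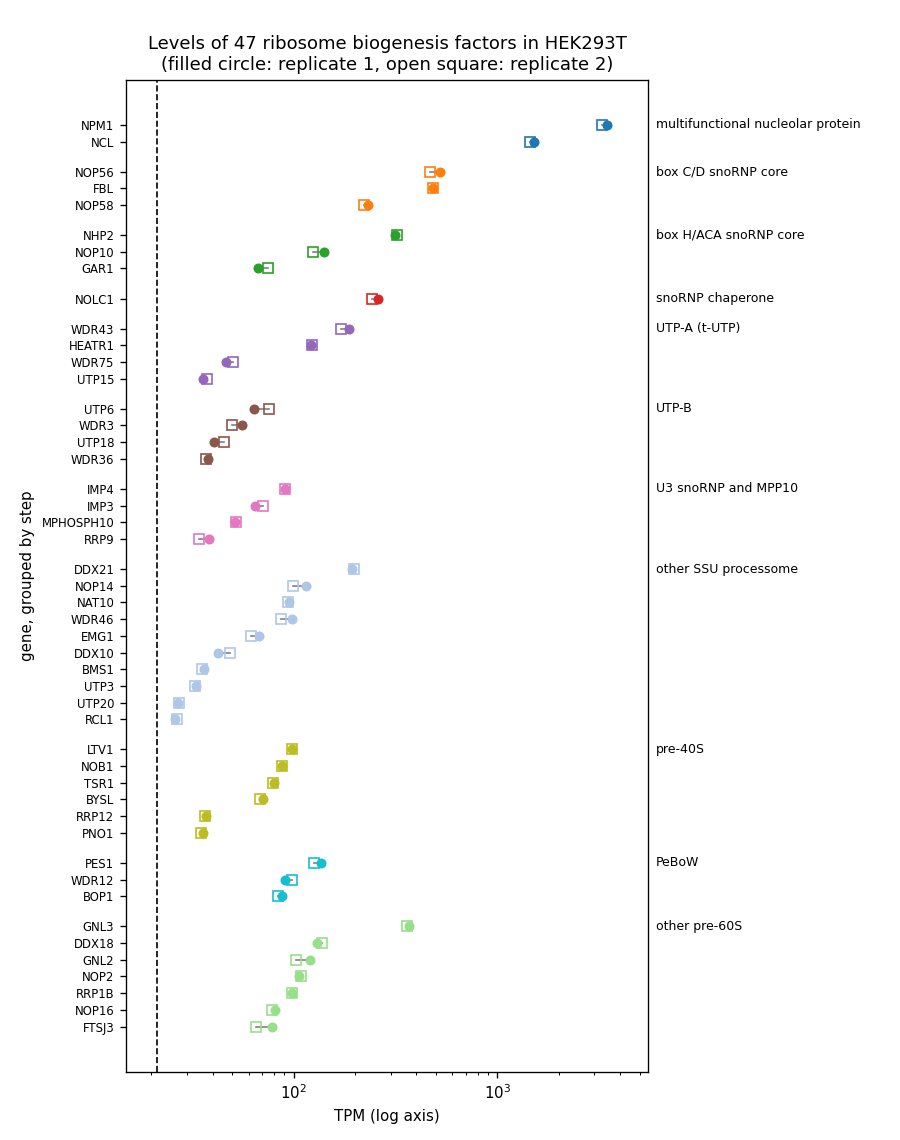
TPM on a log axis (horizontal) of each of the 47 factors (vertical), grouped by step, with a filled circle for replicate 1, an open square for replicate 2 and a dashed line at 21.2 TPM, the median of detected protein-coding genes. NPM1 and NCL stand apart on the right, with means of 3366 and 1482 TPM, and every factor lies to the right of the dashed line in both replicates.

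NPM1 and NCL stood far above the other factors. NPM1 (nucleophosmin), a chaperone of the outer, granular zone of the nucleolus, was at 3467 TPM in replicate 1 and 3265 TPM in replicate 2. The RNA-binding protein nucleolin, encoded by NCL, was at 1523 and 1441 TPM. Together these 2 genes made up 48.5% and 47.8% of the TPM of all 47 factors, and NCL was 2.99-fold above the next gene, NOP56, in TPM. By canonical transcript length the next gene was FBL, and NCL was 1.60-fold above it. NPM1 lies on chromosome 5 (170814120 to 170838814, GRCh37, plus strand) and NCL on chromosome 2 (232318242 to 232348352, minus strand).

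Of the core proteins of the snoRNA particles, NOP56 and FBL came next in the order, while GAR1 lay below the factors' median. In the box C/D particle, FBL (fibrillarin), the methyltransferase, was at 484 and 481 TPM. Its scaffold proteins, the paralogs NOP56 and NOP58, differed from each other. NOP56 had 524 and 468 TPM and NOP58 had 233 and 222 TPM, a 2.18-fold gap in TPM that both replicates showed and that was 1.39-fold by canonical transcript length, while NOP56 and FBL overlapped between replicates. SNU13, which completes this core and was not among the 47, had 207 and 193 TPM. In the box H/ACA particle, the RNA-binding protein NHP2 had 316 and 322 TPM. NOP10, the smallest subunit, had 141 and 125 TPM, and GAR1 was lowest with 66.4 and 74.9 TPM. The pseudouridine synthase DKC1, the catalytic subunit of the same particle and not among the 47, had 236 and 212 TPM. Levels of these 4 mRNAs thus spanned 4.51-fold, wider than the 2.48-fold of the box C/D core with SNU13. By canonical transcript length the spans were closer, 4.48-fold and 3.51-fold. NOLC1, a chaperone that binds both classes of particle, had 260 and 243 TPM.

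The factors grouped under the SSU processome covered a wide range, from DDX21 at a mean of 196 TPM down to RCL1 at 26.4 TPM. The UTP-A group, which binds the nascent pre-rRNA first, ran from UTP15 with 35.9 and 37.5 TPM to WDR43 with 188 and 172 TPM, a 4.89-fold span. Between them lay WDR75 with 46.7 and 50.6 TPM and HEATR1, its largest protein, with 121 and 122 TPM. With UTP4 (71.99 and 66.1 TPM) and NOL11 (118 and 137 TPM), subunits outside the 47, the ends of that span stayed the same by TPM. UTP-B had the narrowest span by TPM of the SSU processome groups. WDR36 had 38.1 and 37.0 TPM, UTP18 had 40.5 and 45.7 TPM, WDR3 had 55.7 and 49.7 TPM, and UTP6 had 63.6 and 75.2 TPM. That span was 1.85-fold, or 1.90-fold with PWP2 and TBL3 added. Without these added genes it was 1.67-fold in replicate 1 and 2.04-fold in replicate 2.

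The U3 snoRNA base-pairs with the pre-rRNA, and RRP9 is the protein particular to its particle. RRP9 had 38.4 and 34.4 TPM, below all 3 proteins of the MPP10 complex. MPHOSPH10 itself had 51.2 and 51.9 TPM, its partner IMP3 had 64.6 and 70.4 TPM, and IMP4 had 90.8 and 91.1 TPM. None of these 4 genes overlapped another in level.

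Enzymes and structural proteins acting elsewhere in the SSU processome had the widest span of the steps, 7.40-fold in TPM and 17.8-fold by canonical transcript length, where EMG1 and not RCL1 was lowest. DDX21, an RNA helicase, was highest with 193 and 198 TPM. It was followed by NOP14 (114 and 98.9 TPM), the RNA acetyltransferase NAT10 (94.99 and 93.8 TPM) and the WD-repeat protein WDR46 (97.6 and 86.8 TPM). NOP14 was above the other two in both replicates, while NAT10 and WDR46 overlapped. The methyltransferase EMG1 had 67.8 and 61.7 TPM, and DDX10, a second helicase, had 42.5 and 48.6 TPM. The GTPase BMS1 had 36.3 and 35.3 TPM, and RCL1, the protein it brings to the pre-rRNA, had 26.2 and 26.7 TPM, the lowest level of the 47. UTP3 with 33.1 and 32.6 TPM and UTP20 with 27.1 and 27.3 TPM lay between BMS1 and RCL1 in both replicates.

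Among the pre-40S factors, NOB1, the endonuclease that makes the 3′ end of 18S rRNA, had 88.0 and 87.3 TPM. Its partner PNO1 had 36.0 and 35.02 TPM, lower in both replicates. LTV1, an assembly factor, was highest in this group with 97.6 and 98.6 TPM. The GTPase-like TSR1 had 80.1 and 78.9 TPM, BYSL had 70.6 and 68.1 TPM, and the export factor RRP12 had 37.1 and 36.6 TPM. In this order (LTV1, NOB1, TSR1, BYSL, RRP12, PNO1) every neighbouring pair was separate in the replicates.

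On the pre-60S branch, the 3 proteins of the PeBoW complex, which is needed to process the large-subunit rRNAs, had close levels. PES1 had 136 and 125 TPM, WDR12 had 90.2 and 98.4 TPM, and BOP1 had 87.5 and 83.8 TPM, a 1.52-fold span and the narrowest of the complexes by TPM, though not by canonical transcript length. PES1 was above the other two in both replicates. GNL3 (nucleostemin), a nucleolar GTPase known from stem and cancer cells, had 370 and 359 TPM. The related GTPase GNL2 had 120 and 103 TPM, less than GNL3 in both replicates. DDX18, a helicase, had 131 and 137 TPM, and the rRNA methyltransferase NOP2 had 106 and 108 TPM. RRP1B had 98.0 and 98.3 TPM, NOP16 had 80.6 and 78.6 TPM, and the methyltransferase FTSJ3 had 78.4 and 65.5 TPM.

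Read as an order of 47 levels, 22 of the 46 neighbouring pairs were separate, meaning that the lower replicate of 1 gene exceeded the higher replicate of the next. From NPM1 down to DDX18 every neighbouring pair was separate except NOP56 and FBL. In the middle of the order, sets such as DDX18, NOP10 and PES1, or NOP2 and NOP14, could not be ranked. Of all 1081 pairs of factors, 1033 (95.6%) were separate. With the 95% credibility intervals of TPM that were deposited for each replicate, only 6 neighbouring pairs did not overlap, the lowest of them WDR43 above DDX18.

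Against related gene lists, the factors lay between the transcription machinery and the ribosome itself. The other ribosome biogenesis genes (72 of 74 with a value) had a median of 61.5 TPM, from NUFIP1 at 15.3 TPM to DKC1 at 224 TPM. The 15 genes of RNA polymerase I and rDNA initiation had a median of 40.4 TPM, from TAF1A at 14.4 TPM to TAF1D at 160 TPM. The 79 cytosolic ribosomal protein genes had a median of 1246 TPM, from RPS28 at 26.2 TPM to RPS2 at 4930 TPM. Of the 47 factors, only NPM1 and NCL exceeded the median ribosomal protein gene. These medians are a description and were not tested, since the lists were chosen by name with results known.

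**Figure D3:**
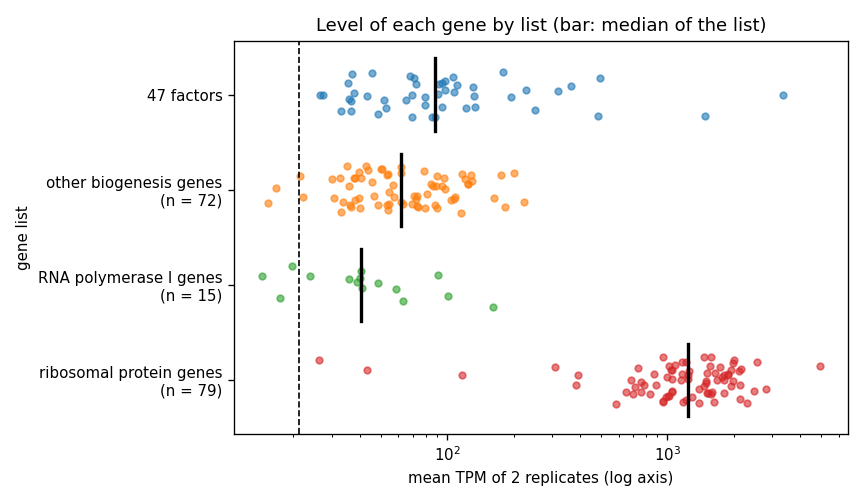
Mean TPM of the 2 replicates on a log axis (horizontal) for every gene of 4 lists (vertical), with 1 point per gene, a black bar at the median of the list and a dashed line at 21.2 TPM, the median of detected protein-coding genes. The factors' median of 87.6 TPM lies above those of the other biogenesis genes (61.5) and the RNA polymerase I genes (40.4), and the ribosomal protein genes lie higher, at 1246.

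Most markers of kidney epithelium were not detected in these cells. Of 13 kidney markers with a value, 2 were detected (PAX2 and LRP2), 6 were at 0, and their summed level was 13.2 to 13.7 TPM. Markers of other cell types were at a similar summed level, 10.4 to 13.8 TPM, with 2 of 7 detected and 3 at 0.

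A feature the choice of genes did not use is that some factors carry snoRNA genes within their bounds on the same strand. This held for 6 of the 47 (12.8%), against 2.10% of protein-coding genes and 2.69% of the detected ones. The hosts are NCL, NOP56, GNL3, NOP58, WDR43 and TSR1, and they hold 20 annotated entries, all within introns of the canonical transcript and on the same strand. Of these, 18 belong to the box C/D class and 2 to the box H/ACA class. NOP56 and NOP58 thus encode both scaffold proteins of the box C/D particle and RNAs that such particles contain. For a view of what these introns hold, 1 entry of each of 5 hosts is printed, 5′ to 3′ on the host's strand in GRCh37. Capitals mark the letters TGATGA of box C, searched in the first 20 bases, and CTGA of box D, searched in the last 20 bases.
SNORD20, NCL intron 11 (chr2:232321155-232321234, minus strand): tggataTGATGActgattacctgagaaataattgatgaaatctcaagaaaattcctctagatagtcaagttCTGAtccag
SNORD110, NOP56 intron 3 (chr20:2634858-2634932, plus strand): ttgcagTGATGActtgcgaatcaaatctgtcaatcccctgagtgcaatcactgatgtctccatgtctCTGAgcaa
SNORD69, GNL3 intron 9 (chr3:52726752-52726828, plus strand): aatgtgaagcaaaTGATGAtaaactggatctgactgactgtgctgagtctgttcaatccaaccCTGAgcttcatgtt
SNORD11, NOP58 intron 9 (chr2:203157772-203157859, plus strand): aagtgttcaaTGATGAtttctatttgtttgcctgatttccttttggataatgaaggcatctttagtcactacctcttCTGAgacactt
SNORD92, WDR43 intron 4 (chr2:29136530-29136614, plus strand): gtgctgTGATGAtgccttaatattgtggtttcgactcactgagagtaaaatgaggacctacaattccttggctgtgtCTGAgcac

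Both motifs were found in these exact letters in 11 of the 18 box C/D entries. Reads on the snoRNAs themselves were almost absent, although all 6 hosts were detected, from TSR1 at 79.5 TPM to NCL at 1482 TPM. The 19 entries with a value summed to 16.6 counts in replicate 1 and 19.6 in replicate 2, and no entry exceeded 6 counts in a replicate. NCL had 17911 and 15503 counts in the same libraries. Mature snoRNAs carry no poly(A) tail, the libraries were made from poly(A)+ RNA, and these counts are no measure of their level.

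The genes lie on 18 chromosomes. Chromosome 2 held 9 of them (19.1%, against 6.28% of protein-coding genes): WDR43, PNO1, MPHOSPH10, DDX18, IMP4, WDR75, NOP58, WDR12 and NCL. The closest of these, NOP58 (203130459 to 203168384, GRCh37, plus strand) and WDR12 (203738984 to 203879521, minus strand), are 570599 bases apart.

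The levels of several factors rest on the transcript length that was assigned to the gene. The deposited TPM uses a length weighted over the isoforms estimated to be expressed, and for 10 factors this was under 60% of the canonical transcript of GENCODE 44, an annotation newer than the authors' own. WDR12 is an extreme: its canonical transcript has 8068 bases, and the weighted length was 17.9% of that. Counts divided by the canonical length instead and scaled to library size (RPKM by canonical length) put WDR12 at 11.5 RPKM, and it became the lowest PeBoW subunit. The span of PeBoW then rose from 1.52-fold to 6.81-fold. EMG1 behaved alike, with a weighted length that was 17.9% of 4871 bases, and fell from 64.7 TPM to 7.77 RPKM by canonical length, the lowest of the 47. UTP6 (31.1%), WDR3 (36.4%), UTP15 (39.1%) and NCL (40.4%) also had short weighted lengths. Among the 47 factors, UTP18 then took the highest place in UTP-B from UTP6, and HEATR1 took it in UTP-A from WDR43. In the U3 and MPP10 group IMP3 took it from IMP4. With UTP4 and NOL11 added, NOL11 was highest in UTP-A and UTP15 lowest, a 6.47-fold span. With PWP2 and TBL3 added, PWP2 was highest in UTP-B and TBL3 lowest, a 2.72-fold span. NPM1 and NCL stayed first and second under both lengths, 3.90-fold apart by canonical length and 2.27-fold by TPM. Over the 47 genes the measures had a Spearman's rho of 0.867, a description across genes that share the same reads.

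**Figure D4:**
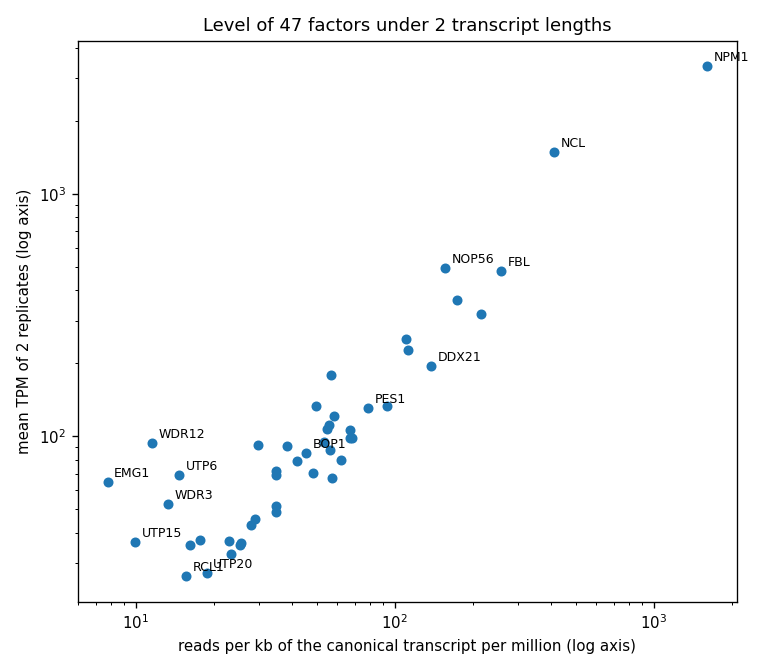
Mean TPM of the 2 replicates, which uses the weighted length of the expressed isoforms (vertical, log axis), against RPKM by canonical length, the counts per kilobase of the canonical transcript scaled to library size (horizontal, log axis), with 1 point for each of the 47 factors and names for some. Most points follow 1 line, while WDR12, EMG1, UTP6, WDR3 and UTP15 lie to its left, with a lower level by canonical length than by TPM.

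To see which factors differed between the replicates, rounded counts were tested with an exact binomial test (two-sided), adjusted by Benjamini-Hochberg over 17920 genes. It compares 2 libraries and not conditions, its p-values cover counting error only with each read taken as independent, and it called 3.88% of those genes, 1.74% as higher in replicate 1 and 2.14% as higher in replicate 2. Of the 47 factors, 4 were called, all higher in replicate 1. NCL had 17911 and 15503 counts (log2 ratio of replicate 2 to replicate 1 after scaling -0.13, adjusted p = 8.235e-14, exact binomial test). NOP14 had 2710 and 2239 counts, a log2 ratio of -0.20 (adjusted p = 1.716e-04). GNL2 (-0.17, adjusted p = 0.0462) and FBL (-0.12, adjusted p = 0.0482) were near the threshold of 0.05. Factors have more counts than most genes, and among the 6500 genes with at least the 665 summed counts of the lowest factor the called share was 5.69%. At an unadjusted p under 0.05 there were 12 factors (25.5%, against 13.3% of all genes tested and 19.6% of those 6500), 8 higher in replicate 1 and 4 higher in replicate 2. In the other lists the adjusted test called 5 of the 72 biogenesis genes and 11 of the 79 ribosomal protein genes.

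Differences between the replicates were small for most factors. The median absolute difference of log2(TPM + 1) was 0.061 for the 47, with a maximum of 0.26, against 0.093 for the 5343 protein-coding genes in the same range of TPM. Only the ends of that range were matched, and not the levels or counts within it. These medians therefore do not show that the factors are more reproducible than genes of equal level. TPM differed by over 10% between replicates for 12 factors, and for 4 of these (NOP10, GNL2, NOP14 and UTP6) the scaled counts did too. For 7 of the other 8 the weighted length differed in the direction opposite to TPM, and for RRP9, lower by 10.4% in TPM and by 8.88% in counts in replicate 2, the length was the same in both. DDX10 was 14.3% higher in replicate 2 by TPM and 1.75% higher by scaled counts, with a weighted length that was 12.2% shorter. FTSJ3 was 16.5% lower by TPM and 4.91% lower by counts, with a length 11.7% greater. In WDR12 the direction turned, with TPM 9.01% higher and counts 1.52% lower in replicate 2. UTP6, by contrast, was higher on both scales, by 18.2% and 16.5%.

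The counts behind these values ranged from 318 for RCL1 in replicate 2 (exact Poisson 95% interval 284 to 355, counting error only) to 22499 for NPM1 in replicate 1. Reads that fit several genes are shared among them in the deposited counts, and 24 of the 47 factors had a count that was not whole in at least 1 replicate. The posterior SD of the count was above 1% of it for 3 factors, NOP16, BOP1 and EMG1, and above 5% for none.

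Copies named after a factor were annotated for 13 of the 47, 92 pseudogenes in all. NPM1 had 49 such copies, of which 31 had reads, but together they held 140 and 129 counts, 0.62% and 0.605% of those of NPM1. BMS1 was different: its 17 copies held 735 and 689 counts, equal to 35.2% and 35.3% of its own 2087 and 1954. The copy with the highest TPM, BMS1P20, had 28.2 and 28.4 TPM, near the level of BMS1 itself, and BMS1P5 had the most counts with 275 and 209. For MPHOSPH10 the copies reached 2.48% and 2.11%. The posterior SD of the BMS1 count was at most 0.538% of it, but the level of BMS1 stays uncertain if reads were misassigned between the gene and its copies.

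Overlap with another gene of at least 100 summed counts was found for 11 factors, each time on the opposite strand. FTSJ3 overlapped PSMC5, a proteasome subunit with 1331 and 1163 counts, against 1347 and 1214 for FTSJ3. GNL3 overlapped PBRM1 (2155 and 2135 counts), and NOP16 overlapped ARL10 (1113 and 1066 counts) with 573 and 552 counts of its own. The sources used here do not say whether counting was by strand, so reads from the shared stretches could belong to either gene.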

How the data were processed

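Poly(A)+ RNA of HEK293T was sequenced in 2 samples of 1 group. Per the submitters' processing notes, the authors used Trimmomatic 0.36, STAR 2.6.1c and RSEM 1.3.1 on hg19 (GRCh37.p13). The study's methods name featureCounts in place of RSEM, but the columns are those of RSEM. Estimated counts were deposited by the authors per gene and share out reads that fit several genes, and their size depends on that model. TPM values, deposited by the authors, are divided by an effective length, which the values show to be somewhat shorter than the weighted transcript length. They add up to an equal total for both replicates. RPKM by canonical length divides by the full length, so it differs from TPM in this as well. FPKM values of the authors are divided by length and by sequenced reads. The posterior SD and the bounds of the TPM intervals are scores deposited by the authors, and the intervals belong to the posterior mean TPM. A pooled table held the authors' values over both libraries.

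Symbols and GRCh37 coordinates came from GENCODE 44 mapped to GRCh37 (96.1% of identifiers matched). BOP1 has no canonical transcript there, so its longest was used. Counts were rounded and scaled by TMM (edgeR 4.0.16, R 4.3.3), and libraries were compared by an exact binomial test (scipy 1.17.1) over genes whose counts summed to 10 or more. Ratios of counts on the log2 scale used 0.5 added counts, and TPM a pseudocount of 1. A count within 0.01 of a whole number was called whole. On simulated data the test recovered 198 of 200 genes changed 1.5-fold, with 10 false calls among 17852 genes. The simulated counts had counting error only, as the test assumes, and the changed genes were picked among those with high counts. The simulation therefore cannot show how the test handles a wider spread between libraries or smaller changes. Percentiles are among 19391 protein-coding genes. The factors and lists were chosen with earlier results of these data known. All 47 could be named, of the other lists the highest, the lowest and subunits completing a complex, and copies and overlapping genes by their counts or TPM. Alternatives covered the scale, the length, the filter, each replicate and the promoter window. Protein features were not analysed here.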

Additional observations from a re-analysis of the deposited data

How the results depend on the processing

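All 47 factors were detected under each of the alternatives run. Their median level was 62.0 on the FPKM scale, 124 as counts scaled to library size without division by length, 83.5 by posterior mean TPM and 48.3 RPKM by canonical length, and 86.8 to 88.0 TPM in single replicates. Its percentile was 91.6 without division by length, 93.3 by canonical length, 87.2 among detected protein-coding genes, 97.1 among all genes and 91.7 to 91.9 in single replicates. Their share of the library was 1.07% of counts and 0.941% by posterior mean TPM.

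Without division by length, the span of levels was 1.34-fold in the box C/D core, 3.57-fold in the box H/ACA core, 9.80-fold in UTP-A, 2.55-fold in UTP-B and 1.91-fold in PeBoW. By canonical length, which was chosen after seeing the data, it was 2.28-fold in the box C/D core, 5.90-fold in UTP-A, 2.23-fold in the U3 and MPP10 group and 6.81-fold in PeBoW. In single replicates the box C/D span was 2.16 to 2.25-fold.

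The number of factors called between the libraries was 2 with no filter on low counts, where GNL2 (adjusted p = 0.0786) and FBL (adjusted p = 0.0819) lost the call in the exact binomial test. With whole counts only, 23 factors could be tested, 0 were called by the same exact test (GNL2 adjusted p = 0.108) and 3 had an unadjusted p under 0.05. By credibility intervals 6 neighbouring pairs were separate. Factors with a posterior SD over 5% of the count numbered 0, and over 1%, a level added after seeing the data, 3. The share of factors' windows with CACGTG exceeded that of all windows by 37.1 percentage points, by 6.96 upstream of the start and by 10.8 for CACGCG. IMP4 had 91.3 TPM in the authors' pooled table.

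No paired analysis was possible because there is 1 group. A single replicate gives no order with a spread and no comparison of libraries. Depth limits RCL1 most, with a counting error of 11.2% at 318 counts.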
